A study of Mus musculus with 2 samples.

Results

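The *Hoxb* genes *Hoxb1* to *Hoxb9* and *0610040B09Rik*, a non-coding RNA annotated on the opposite strand of the same cluster, were measured in mouse embryo fibroblasts (MEFs). The 10 genes were taken by name from the GENCODE M1 annotation on mm9, out of 1718 annotated genes that lie wholly inside the genome stretches covered by the deposited tracks. The RNA came from 2 MEF lines, each grown from the carcass of a female embryo of 13.5 dpc after the head and internal organs had been taken away. The line called JXO had a JF1 mother and a TgOG2 father, and the line called OXJ had a TgOG2 mother and a JF1 father. JF1 is an inbred strain of the *molossinus* group, and TgOG2 is a transgenic line of *domesticus* background that carries a green fluorescent reporter under *Oct4* regulatory sequence, so that both lines are hybrids that inherited this transgene from opposite parents. Each line stands for 1 embryo and gave 1 library, and a difference between JXO and OXJ cannot be told apart from a difference between embryos, cultures or libraries. No p-value was therefore computed between the crosses. The study used the crosses to find transcripts made from the maternal or the paternal allele. The tracks do not mark the parental bases, so RNA from either allele is counted together.

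Hox genes encode homeodomain transcription factors that give cells their position along the head-to-tail axis. In each of the 4 mammalian Hox clusters the genes are read in the same direction, and their order along the chromosome follows the order in which they are used in the embryo. Genes at the 3′ end, such as *Hoxb1*, act early and up to the hindbrain, whereas genes at the 5′ end, such as *Hoxb9*, act later and in more posterior segments. Fibroblasts grown from different sites of the body are known to keep a site-specific set of active Hox genes in culture. Non-coding RNAs are made from the opposite strand at several places in these clusters.

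A level below is the read depth at a base, scaled to 50000000 aligned reads and averaged over the exons of a gene on its own strand. It is a measure per base and can be compared between genes of different length. In JXO 1 read is worth a scaled depth of 0.652 and in OXJ 0.579. Each level is given with a 95% Poisson interval (exact), for which every 200 bases of signal were taken as 1 read pair. It covers counting error only, with pairs taken as independent. Reads amplified by PCR without molecular identifiers are not independent molecules, so the interval can be too narrow even for this error. For JXO the tracks contain 5837225 reads, or 7.61% of what was aligned, and for OXJ 5785447 reads, or 6.70%, and a base outside their stretches was not measured. Of the 17 fibroblast markers listed, *Col1a2*, *Dcn* and *Lum* lie in these stretches. The collagen gene *Col1a2* had levels of 583 and 388 in JXO and OXJ, and the proteoglycan genes *Dcn* and *Lum* had 22.9 and 25.9 and 18.9 and 15.5. Of the 8 neural markers 2 were measured, *Nes* with 339.9 and 154.5 and *Sox2* with 1.27 and 1.22. *Nes* encodes nestin, an intermediate filament of neural progenitors that cultured mesenchymal cells can make too. Markers of muscle, blood, endothelium and epithelium were not analysed here. Because whole cultures were sequenced, fewer cells that express a gene and less RNA per cell cannot be told apart.

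Signal in the *Hoxb* cluster was highest at its 5′ end, and *Hoxb9* had the highest level of its genes. *Hoxb9*, which patterns the thoracic skeleton, had a level of 109.7 (105 to 114) in JXO and 46.4 (43.7 to 49.4) in OXJ. This was 64.9% and 60.8% of the level summed over the 9 *Hoxb* genes, and 51.8% and 45.9% where only coding bases were measured. Among 732 protein-coding genes covered in both libraries *Hoxb9* stood at percentile 86.3 in JXO and 80.1 in OXJ. It was 6.0 and 5.45 times higher than *Hoxb6*, the next member, and the intervals of these genes did not overlap in either library. Over coding bases *Hoxb7* came next, and *Hoxb9* was 3.74 and 2.66 times higher than *Hoxb7*.

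*Hoxb8*, the neighbour of *Hoxb9* and a gene with a role in the myeloid lineage, had a level of only 2.27 (1.66 to 3.03) in JXO and 1.58 (1.10 to 2.18) in OXJ. The exon level of *Hoxb9* was thus 48.3 and 29.5 times that of the gene next to it. Over coding bases it was 24.6 and 17.1 times, since 1058 exon bases before the coding part of *Hoxb8* were poorly covered. Beyond *Hoxb8* the signal was higher again. *Hoxb7* had 11.5 (10.3 to 12.7) in JXO and 6.03 (5.25 to 6.90) in OXJ. *Hoxb6*, a gene of the lateral plate mesoderm, had 18.3 (16.2 to 20.5) and 8.52 (7.22 to 9.98). These genes lie between the lowly covered *Hoxb8* and *Hoxb5*, and *Hoxb6* exceeded *Hoxb5* by 8.09-fold in JXO and 9.75-fold in OXJ.

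*Hoxb5*, which acts in the enteric neural crest, had 2.26 (1.67 to 2.99) in JXO and 0.874 (0.542 to 1.33) in OXJ. *Hoxb4*, a gene known for the expansion of blood stem cells, had 4.51 (3.80 to 5.31) and 3.13 (2.58 to 3.77). From there towards the 3′ end the hindbrain genes came at intermediate levels. *Hoxb3* had 8.90 (7.72 to 10.2) in JXO and 4.69 (3.90 to 5.60) in OXJ. *Hoxb2* had 11.5 (10.2 to 12.9) and 5.08 (4.28 to 5.97), which was 5.07 and 5.81 times the level of *Hoxb5*, and 7.50 and 12.0 times over coding bases.

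*Hoxb1*, which gives a hindbrain segment its identity, lies at the 3′ end and was close to 0. It had 2 reads in JXO, both in the last exon and none over coding bases, for a level of 0.0561 (0.00142 to 0.313). In OXJ no read fell on its exons, and the upper bound of the interval was 0.184. *Hoxb1* is therefore not counted among the 9 members covered in both libraries, and its transcription was not detectable at this depth in OXJ. Levels did not follow the gene order evenly, since *Hoxb8* and *Hoxb5* were each lower than the genes on either side.

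**Figure D1:**
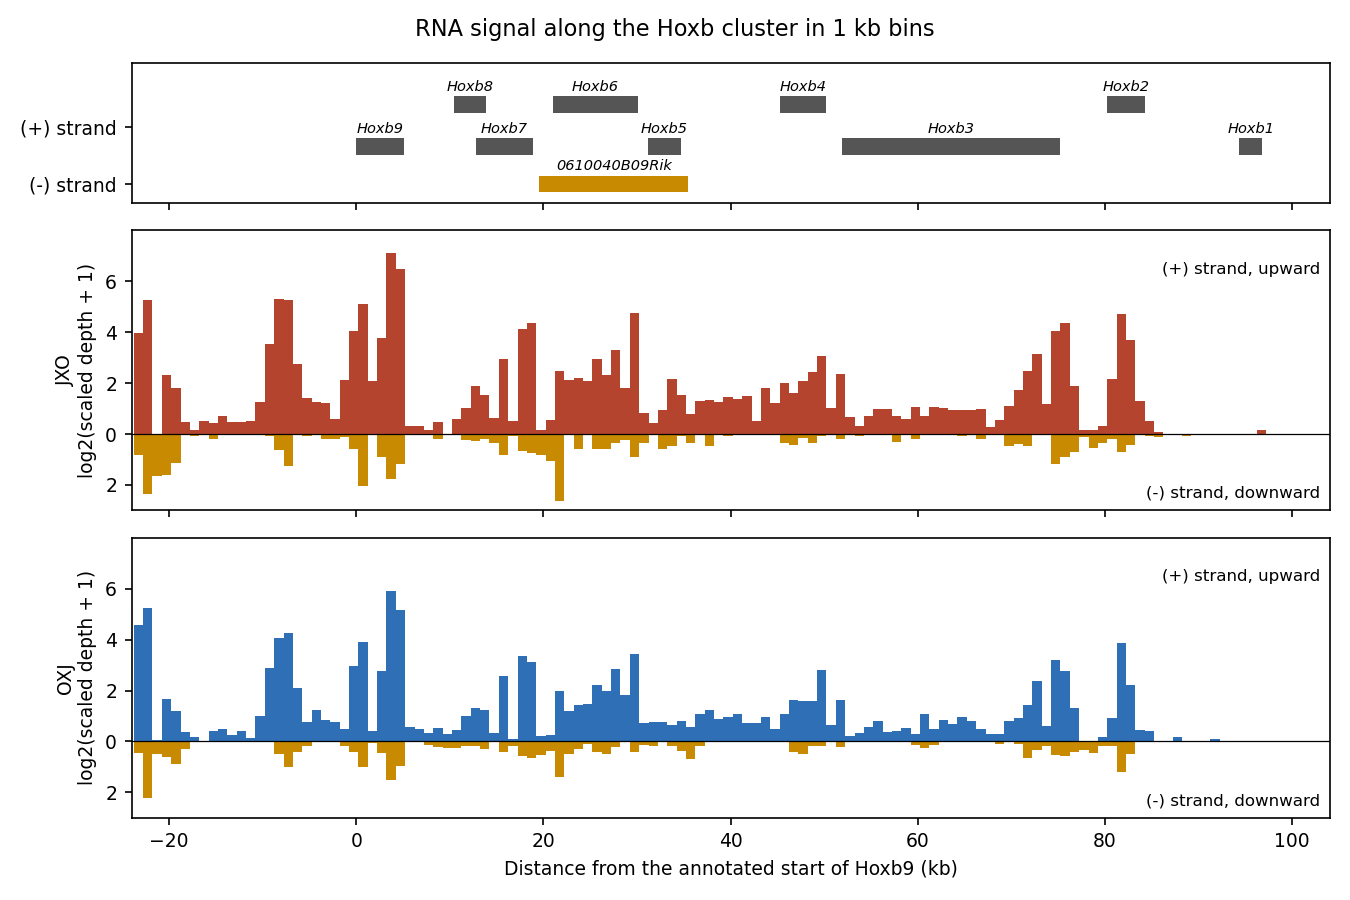
RNA signal in 1 kb bins along the *Hoxb* cluster as log2(scaled depth + 1), with the (+) strand drawn upward and the (-) strand downward, for JXO and OXJ; the x axis gives the distance in kb from the annotated start of *Hoxb9*, and the boxes on top show the gene bodies. Signal on (+) is highest over *Hoxb9* and ends after *Hoxb2*, and the highest (-) bin between the ends of *Hoxb9* and *Hoxb1*, with levels of 5.20 in JXO and 1.66 in OXJ, lies over the body of *0610040B09Rik*.

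**Figure D2:**
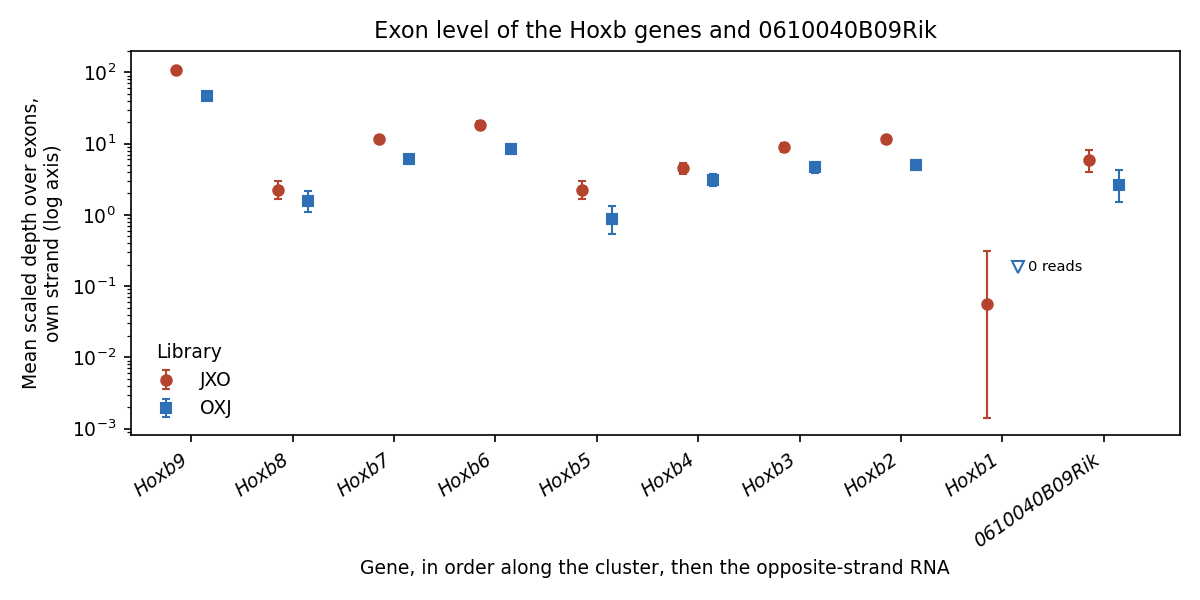
Mean scaled depth over exons on the annotated strand (log axis) for the *Hoxb* genes in chromosomal order and for *0610040B09Rik*, in JXO (circles) and OXJ (squares), with bars for the 95% counting interval; the open triangle marks the upper bound for *Hoxb1* in OXJ, where no read was found. *Hoxb9* stands apart at 109.7 and 46.4, and *Hoxb8* and *Hoxb5* are the lowest of the genes covered in both libraries.

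The order of the levels was nearly the same in both libraries. Over the 9 members covered in both, Spearman's rho was 0.983, given as a description of genes that share their library and scaling. *0610040B09Rik* and *Hoxb4* were the members that changed places. Several neighbours in this order did not differ beyond their counting intervals. In JXO these were *Hoxb7* and *Hoxb2*, *Hoxb2* and *Hoxb3*, *Hoxb3* and *0610040B09Rik*, *0610040B09Rik* and *Hoxb4*, and *Hoxb8* and *Hoxb5*. In OXJ the intervals also overlapped between *0610040B09Rik* and *Hoxb8*, while those of *Hoxb3* and *Hoxb4* were apart. Without *Hoxb9*, the median level of the 7 other *Hoxb* genes covered in both was 8.90 in JXO and 4.69 in OXJ, beside 11.8 and 8.49 for the 732 protein-coding genes. *Hoxb6* was above the protein-coding median in JXO, with 18.3 (16.2 to 20.5). In OXJ its level of 8.52 (7.22 to 9.98) did not differ from that median beyond its interval.

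Signal was not even along the genes. In each of the 8 *Hoxb* genes covered in both libraries the coding bases had a higher level than the exon bases before the first coding base. At *Hoxb9* the level was 38.9 before the coding part and 107 over it in JXO, and 12.2 and 47.4 in OXJ. At *Hoxb7*, where the annotation places 2471 exon bases before the coding part, the level there was 2.13 (1.53 to 2.90), while the coding part had 28.6 (24.1 to 33.7) in JXO. In OXJ these were 1.24 and 17.8. The level of *Hoxb7* over all exons is thus an average over a long lowly covered stretch and a 3′ part that was much higher. *Hoxb4* showed the same on a smaller scale, with 2.60 and 6.05 in JXO and 1.62 and 3.91 in OXJ. At *Hoxb2*, the bases after the coding part were lower than the coding part, with 8.22 against 19.6 in JXO and 2.47 against 11 in OXJ. Exon 2 of *Hoxb8* and exon 1 of *Hoxb7* overlap on the same strand, and reads there cannot be assigned to either gene.

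Exons were higher than introns in each of the *Hoxb* genes covered in both libraries that had intron signal. At *Hoxb9* the exon level was 40.4 times the intron level in JXO and 65.5 times in OXJ. At *Hoxb3*, whose introns span 20354 bases, it was 8.64 and 8.01 times. *Hoxb6* and *Hoxb2* had the highest intron levels, with exons 5.03 and 3.88 times the introns at *Hoxb6* and 2.03 and 1.98 times at *Hoxb2*. The ratio was also low at *Hoxb4* in JXO, with 2.76 beside 10.0 in OXJ. At *Hoxb5* it was 7.01 in JXO and 2.75 in OXJ. The intron level of *Hoxb6* was 3.63 in JXO and 2.20 in OXJ, above the exon level of *Hoxb5* in both libraries. The RNA was depleted of ribosomal RNA and was not selected for poly(A), so unspliced RNA is part of the library.

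All 9 members covered in both libraries were higher in JXO than in OXJ. This has to be read against the background, since 83.1% of the 732 protein-coding genes were higher in JXO and their median log2 ratio of JXO over OXJ was 0.43. The median over the members was 1.09. With the median gene set to 0 the members were again all on the JXO side, beside 50% of the genes, but *Hoxb8* and *Hoxb4* by only 0.07 and 0.08. At 2-fold or more, 5 of the 9 members were higher in JXO, beside 7.1% of the protein-coding genes, and none was that much higher in OXJ, beside 1.37%. The count depends on the scaling. With the totals of the tracks set equal it was 2, *Hoxb9* and *Hoxb5*, beside 3.42% of the genes, and with the median gene set to 0 it was 0, beside 1.37%. These ratios compare 1 library with 1 library and have no replicate check.

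The members at 2-fold or more were *Hoxb9*, *Hoxb6*, *Hoxb5*, *Hoxb2* and *0610040B09Rik*. The log2 ratio of *Hoxb9* was 1.24 (1.13 to 1.35), the narrowest interval among the members. *Hoxb6* had 1.09 (0.81 to 1.39) and *Hoxb2* 1.16 (0.88 to 1.47). *Hoxb5* had the highest ratio, 1.28, with an interval of 0.61 to 2.18 that covers the ratios of 6 other members. Below 2-fold came *Hoxb7* with 0.92 (0.68 to 1.18) and *Hoxb3* with 0.91 (0.59 to 1.26). *Hoxb4* had 0.51 (0.16 to 0.90), and *Hoxb8* had 0.50 with an interval from -0.13 to 1.2 that includes no difference. The intervals of *Hoxb9* and *Hoxb4*, a pair taken from the 9 members, did not overlap over all exons. Over coding bases they did, with 0.98 to 1.38 for *Hoxb9* and -0.15 to 1.43 for *Hoxb4*. Whether the genes of the cluster differed by 1 common factor was not tested.

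By exon, 21 of the 25 merged exons of *Hoxb1* to *Hoxb9* were covered in both libraries. Of these, 19 were higher in JXO, 11 of them with the whole interval above 0, and 2 were lower with intervals that include 0. Exons of other genes were not counted in this way. Among the 732 protein-coding genes 83.1% were higher in JXO, with a median log2 ratio of 0.43, so these exon counts alone do not set the cluster apart. At *Hoxb5* and *Hoxb6* exons of the same gene had ratios whose intervals did not overlap. Exon 2 of *Hoxb5* had 4.30 in JXO and 0.858 in OXJ, a log2 ratio of 2.20 (1.27 to 3.54). Its exon 1 had 0.668 and 0.886, a log2 ratio of -0.36 (-1.89 to 1.0). The excess of *Hoxb5* in JXO therefore lay in exon 2. At *Hoxb6* exon 3 had a log2 ratio of 1.41 (1.04 to 1.79) and exon 2 had 0.47 (-0.07 to 1.03).

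**Figure D3:**
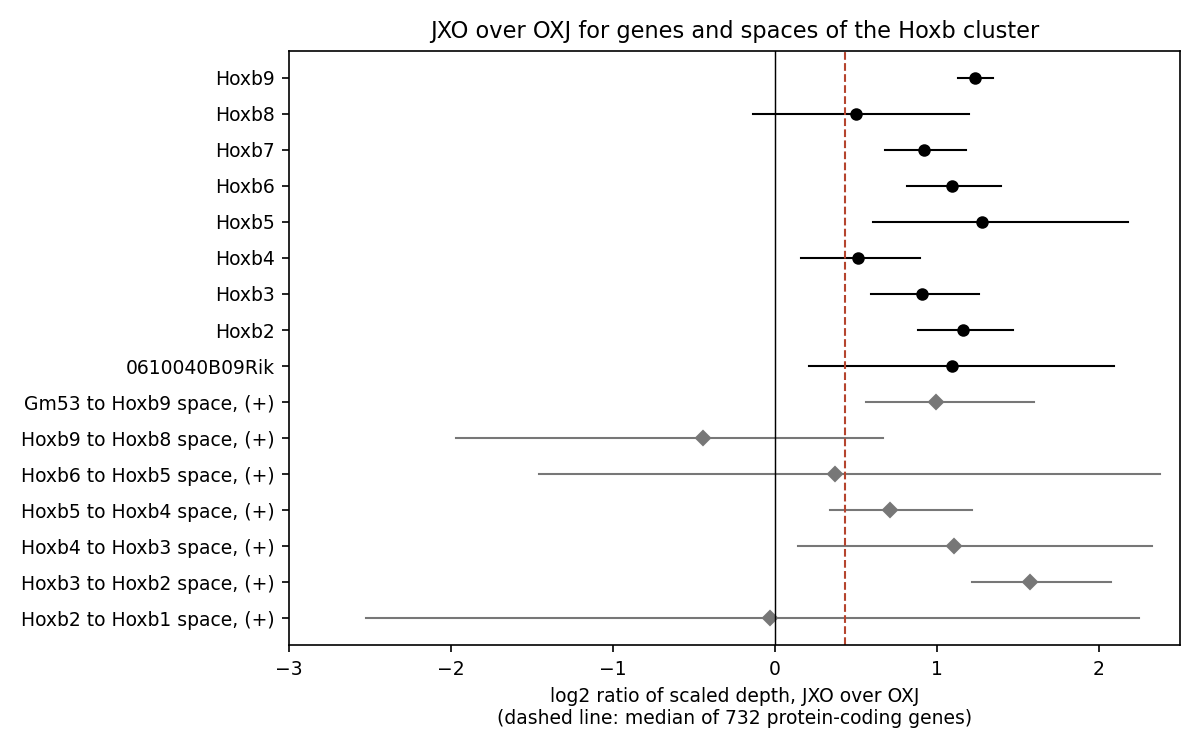
log2 ratio of scaled depth in JXO over OXJ for the 9 members covered in both libraries (black circles) and for the (+) signal of the space before *Hoxb9* and of 6 of the 7 spaces within the cluster, without the space from *Hoxb7* to *Hoxb6*, where (+) had 2 reads in JXO and 3 in OXJ (grey diamonds), with bars for the 95% counting interval; the solid line marks 0 and the dashed line the median of 732 protein-coding genes at 0.43. The members lie to the right of both lines, and of these only *Hoxb8* has an interval that reaches below 0. The spaces from *Hoxb9* to *Hoxb8*, *Hoxb6* to *Hoxb5* and *Hoxb2* to *Hoxb1* lie left of the dashed line with intervals on both sides of 0.

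The other Hox clusters were set beside *Hoxb*. Of 32 other Hox and Evx genes listed, 31 lie in the stretches and 29 were covered in both libraries. Of these, 26 were higher in JXO and 6 at 2-fold or more, beside 83.1% and 7.1% of the 732 protein-coding genes. Both counts use the depth as deposited. The median log2 ratio was 1.01 over the 8 *Hoxb* genes, 0.93 over 11 *Hoxa* genes, 0.75 over 9 *Hoxc* genes and 0.23 over 8 *Hoxd* genes. The *Hoxb* and *Hoxa* clusters were thus alike in their median ratio, and *Hoxd* was below the median gene. In level *Hoxb9* exceeded each of the other Hox genes measured. The highest of those were *Hoxd13*, a gene of the distal limb and genital tubercle, with 28.5 and 21.7, *Hoxc8* with 20.5 and 14.4, *Hoxc6* with 18.1 and 10.7, and *Hoxa9*, the paralog of *Hoxb9*, with 16.9 and 7.10. Reads that fit paralogous homeobox sequence could be placed at up to 10 loci, and their share in these values is not known.

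Polycomb and Trithorax complexes are the main chromatin regulators of Hox clusters. Of 26 such genes listed, 4 were measured. *Ezh2*, the Polycomb methyltransferase, had 56.9 in JXO and 32.5 in OXJ, and the other three, *Jarid2*, *Mll2* and *Ezh1*, had between 3.42 and 10.1 in JXO. None of these 4 genes differed by 2-fold. Of 20 genes of the retinoic acid pathway, a known inducer of Hox genes, 2 lie in the stretches, *Cyp26a1* and *Cdx4*, and neither had a read over its exons on its own strand. None of the 9 listed Hox cofactors was analysed here.

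Signal over the *Hoxb* exons was largely on (+), the strand of these genes. In JXO between 91.5% (*Hoxb5*) and 97.6% (*Hoxb2*) of the exon signal of the 8 genes was on (+), and in OXJ between 85.5% (*Hoxb5*) and 96.5% (*Hoxb9*). Their medians were 94.6% and 94.1%, beside 97.1% and 96.2% for the protein-coding genes. *0610040B09Rik* was the member with the lowest share on its own strand, with 74.5% on (-) in JXO (Clopper-Pearson 95% interval 58.6 to 86.7%) and 64.2% in OXJ (42.7 to 82.2%). With a threshold of 80%, 8 of 9 members were on their own strand in either library, which is near the background of 91.3% of genes in JXO and 91.5% in OXJ. Where exons that overlap an exon of the other strand were left out, *0610040B09Rik* had 84.4% (68.6 to 94.3%) on (-) in JXO and 63.8% (42.1 to 82.0%) in OXJ, so that 9 of 9 members passed in JXO and 8 of 9 in OXJ.

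**Figure D4:**
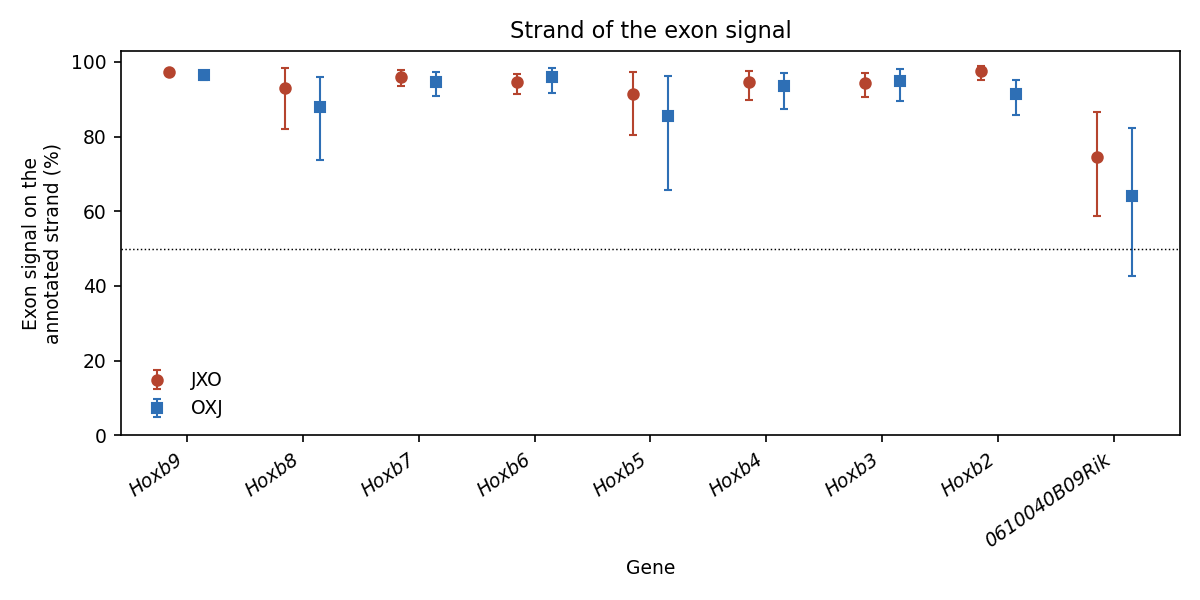
Share of exon signal on the annotated strand, in percent, for the 9 members covered in both libraries, in JXO (circles) and OXJ (squares), with Clopper-Pearson 95% intervals on pairs of reads; the dotted line marks 50%. The 8 *Hoxb* genes lie at 85.5% or above, and *0610040B09Rik* lies at 74.5% and 64.2%.

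*0610040B09Rik* (chr11:96152338-96168224) starts beyond the 3′ end of *Hoxb5*, runs against the direction of *Hoxb5* and *Hoxb6* and ends in the space between *Hoxb6* and *Hoxb7*. Over its exons the (-) level was 5.81 (3.95 to 8.25) in JXO and 2.67 (1.53 to 4.33) in OXJ, a log2 ratio of 1.10 (0.21 to 2.09). It rests on 62.1 and 32.1 reads. The level was thus within the range of the *Hoxb* genes themselves, above *Hoxb5* in both libraries with no overlap of intervals.

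Most of this signal lay in the middle exon (chr11:96154689-96154868), inside the first intron of *Hoxb6*. This exon had 16.6 (10.5 to 24.9) on (-) in JXO and 5.55 (2.49 to 10.7) in OXJ. On (+), the strand of *Hoxb6*, it had 3.62 and 5.67. In JXO 82.1% of the signal over the middle exon was therefore on (-), and in OXJ 49.5%. The (+) depth in JXO stepped at some of these exon limits too. It rose from 3.26 to 5.87 at the start of the middle exon and fell from 3.91 to 0.652 after the first exon. At the 3′ end of the middle exon it was 0.652 on either side. How much of the (+) signal here comes from the *Hoxb6* intron was not tested. The last exon (chr11:96152338-96152579), which lies outside the *Hoxb* genes, had 3.15 in JXO and 1.61 in OXJ, and all of its signal was on (-). The first exon (chr11:96168051-96168224) had 1.58 and 2.49. A further annotated exon, in a shorter transcript, lies inside exon 2 of *Hoxb5* and had 0.209 and 0.365 on (-), less than 1 read on average.

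The sequences at these exons are shown as mm9 reference on (-), 5′ to 3′, because they hold the junctions at which the (-) signal changed. Capitals mark the intron bases next to an exon, AG before it and GT after it. The middle exon is shown whole with 10 intron bases on either side (chr11:96154679-96154878), the end of the first exon over 30 bases (chr11:96168041-96168070) and the start of the last exon over 30 bases (chr11:96152560-96152589).
End of the first exon: cagctggaagggattgaccgGTaagtgtcc
Middle exon: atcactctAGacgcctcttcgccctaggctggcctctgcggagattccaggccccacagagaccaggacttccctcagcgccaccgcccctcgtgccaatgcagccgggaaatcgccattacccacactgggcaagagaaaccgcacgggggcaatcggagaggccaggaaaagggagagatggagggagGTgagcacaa
Start of the last exon: tgcccctcAGaaggttccaggttggccgta
All 3 annotated introns of *0610040B09Rik* begin with GT and end with AG when read on (-), and none does when read on (+). Over the 10 members together, 23 of 24 annotated introns did so on their own strand and none on the other.

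The (-) signal changed at these bases. In the 20 bases inside and outside the 5′ end of the middle exon the mean depth was 15.1 and 0.05 reads in JXO and 7.70 and 0.25 reads in OXJ. At its 3′ end the depth dropped to 5.30 reads in JXO, from 25.2 inside, and to 0 in OXJ, from 9.05. At the 3′ end of the first exon the (-) depth was 9.45 reads inside and 0 outside in JXO and 8 and 1 in OXJ, and at the 5′ end of the last exon it was 8.70 inside and 0 outside in JXO and 10.3 and 0 in OXJ. By contrast, the annotated outer ends were not sharp. At the 5′ end of the first exon 1 read lay on either side in JXO, and the signal reached 22 bases before it in JXO and 79 in OXJ. At the 3′ end of the last exon no read was found in either library, and the signal stopped within the exon. Within the shorter middle exon of the other transcript, the depth did not fall at the annotated 3′ end, with 26.6 and 25.3 reads inside and outside it in JXO and 9.95 and 11.3 in OXJ.

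The introns of *0610040B09Rik* had less (-) signal. The intron before the last exon had 1.58 in JXO and 0.479 in OXJ and was covered over 61.5% and 40.2% of its bases. The long intron of 13182 bases, which spans *Hoxb5* and most of *Hoxb6*, had 0.310 and 0.200 on (-), beside 5.04 and 2.55 on (+). Over exons the (-) level was 11.9 times that of introns in JXO and 11.2 times in OXJ, within the range of this ratio for the *Hoxb* genes.

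**Figure D5:**
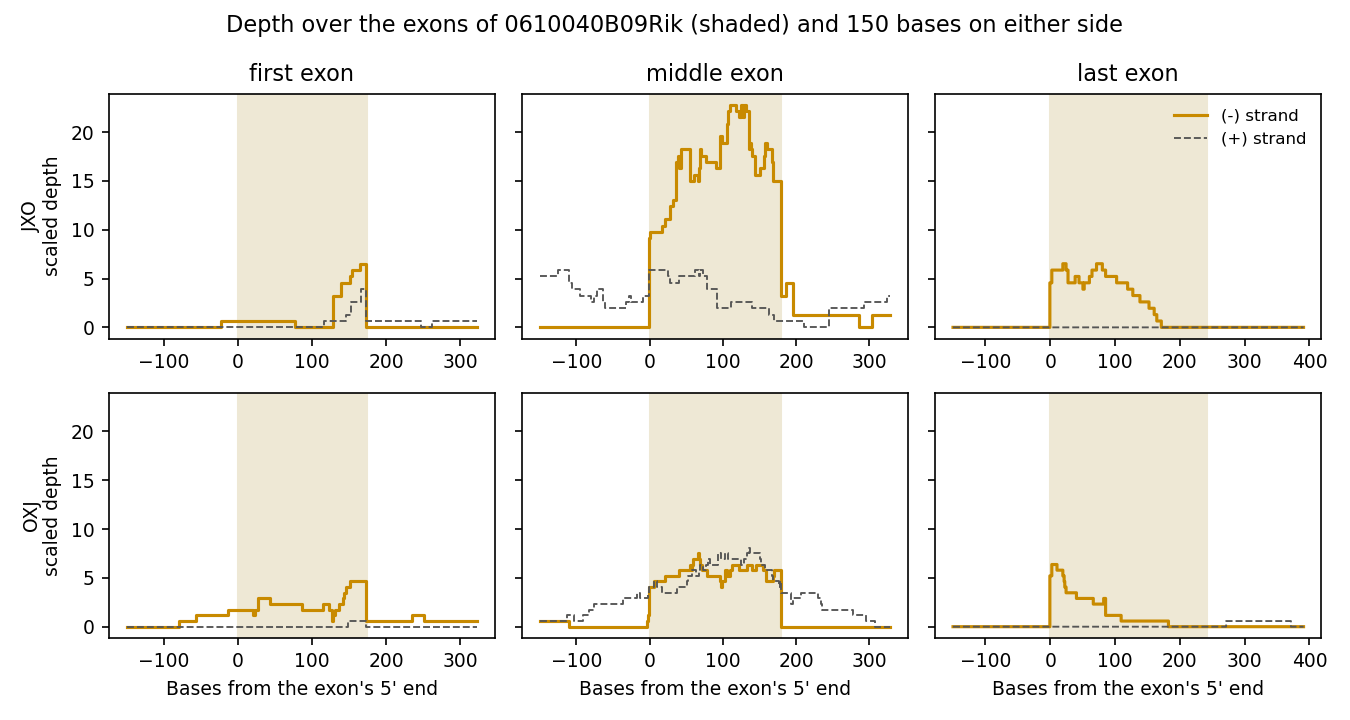
Scaled depth on (-) (solid) and (+) (dashed) over the first, middle and last exons of *0610040B09Rik* and 150 bases on either side, against the distance in bases from the 5′ end of the exon read on (-), for JXO (top) and OXJ (bottom); exons are shaded. The (-) signal changes in a step at the inner exon ends in both libraries. It goes on at a lower depth past the 3′ end of the middle exon in JXO and, with 1 read, past the first exon in OXJ. Over the middle exon (+) signal is present too, with means of 3.62 in JXO and 5.67 in OXJ.

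Between the *Hoxb* genes the signal was mainly in the direction of these genes. The 7 spaces between *Hoxb9* and *Hoxb1* cover 35.7 kb, and their (+) level was 1.22 (1.09 to 1.36) in JXO and 0.574 (0.492 to 0.665) in OXJ. Their (-) level was 0.147 (0.105 to 0.200) and 0.109 (0.0756 to 0.153). These spaces include parts of RNAs annotated on (-). Outside the gene bodies of both strands the (+) level was 0.709 in JXO and 0.447 in OXJ, and the (-) level was 0.0289 and 0.0337. Of the (+) reads in the 7 spaces, 353 of 668 in JXO and 128 of 354 in OXJ lay between *Hoxb3* and *Hoxb2*. That space holds the signal past the annotated end of *Hoxb3* that is described below. Of 91 bins of 1 kb from *Hoxb9* to *Hoxb1*, 80 in JXO and 81 in OXJ had signal on (+), and 54 and 50 had signal on (-). The (-) signal exceeded the (+) signal in 6 and 7 bins, 3 of which were the same. A pair of those lies at the last exon and last intron of *0610040B09Rik*. The other lies between *Hoxb3* and *Hoxb2*, in an intron of *Hoxb3os*, an RNA annotated on (-). It had 0.448 and 0.371 on (-) and 0.130 and 0 on (+).

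The (+) signal of the spaces did not all favour JXO. The log2 ratio of JXO over OXJ was -0.44 (-1.97 to 0.67) between *Hoxb9* and *Hoxb8*, and 1.57 (1.22 to 2.07) between *Hoxb3* and *Hoxb2*. The latter space includes the signal past the annotated end of *Hoxb3*. In level the largest spaces differed. Between *Hoxb5* and *Hoxb4*, over 10.6 kb, the (+) level was 1.4 (1.15 to 1.68) in JXO and 0.815 (0.640 to 1.02) in OXJ, and reads covered 73.5% and 63.7% of this space with no gap longer than 445 and 532 bases. The gap between *Hoxb2* and *Hoxb1*, of 10.1 kb, had 0.0488 and 0.0518 on (+), with 5.19% and 6.61% of its bases covered. The signal on (+) thus ended in the space after *Hoxb2*. Beyond *Hoxb1*, up to the end of the stretch 48.8 kb away, the (+) level was 0.0294 and 0.0166. The space between *Hoxb7* and *Hoxb6*, which holds the last exon of *0610040B09Rik*, was the only space between *Hoxb* genes with more signal on (-) in both libraries, with 0.798 and 0.366 beside 0.0609 and 0.0812 on (+).

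Signal ran without a gap past the annotated end of *Hoxb3*, for 1284 bases in JXO and 910 bases in OXJ. Over the 910 bases covered in both (chr11:96208000-96208909) the (+) level was 20.4 (17.2 to 24.1) and 5.96 (4.37 to 7.93). In JXO this was above the last exon of *Hoxb3*, which had 14.0 (11.6 to 16.7), while in OXJ the last exon had 7.28 (5.69 to 9.17) and the intervals overlapped. None of the other *Hoxb* genes had a run past its end of more than 137 bases. On (-) the same 910 bases had 0.837 and 0.536. An RNA annotated there on (-), *Hoxb3os*, had 0.797 (0.514 to 1.18) in JXO and 0.644 (0.406 to 0.971) in OXJ on its own strand, beside 16.8 and 7.13 on (+). *Gm11536*, annotated on (-) inside *Hoxb3*, had no read in JXO and 1 in OXJ. Exons of *Hoxb3os* overlap exons of *Hoxb2* and *Hoxb3*, and how much of its (-) signal comes from reads given the wrong strand was not tested. Of the 3 RNAs annotated on (-) within the cluster, *0610040B09Rik* had the highest level in both libraries.

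Around the cluster, *Gm53*, which lies 6.59 kb before *Hoxb9* on the same strand, had 24.6 (22.9 to 26.5) in JXO and 11.6 (10.5 to 12.8) in OXJ, a log2 ratio of 1.08 (0.90 to 1.26). The space from *Gm53* to *Hoxb9* had 1.83 and 0.872 on (+) and was covered over 72.4% and 62.8% of its bases. The hairpin of *Mir196a-1*, a microRNA that targets *Hoxb8*, lies in this space and had 3.02 (0.467 to 9.97) and 2.70 (0.421 to 8.88). The hairpin of *Mir10a*, before the coding part of *Hoxb4*, had 0.0889 and 0, within a fraction of 1 read. Reads of these libraries do not measure mature microRNAs. *Hoxb13*, a posterior gene that stands apart from the cluster, had 6 reads in JXO and none in OXJ, with a level of 0.177 (0.0366 to 0.518) and an upper bound of 0.194. *Gm11539*, a pseudogene between *Hoxb13* and *Gm53*, had 84.7 and 98.6, and its reads may belong to its parental gene. Farther out on the *Hoxb1* side, *Snx11*, *Cbx1*, *Nfe2l1* and *Copz2* had levels between 24.0 (*Snx11*) and 197 (*Nfe2l1*) in JXO and between 16.4 and 124 in OXJ. Their log2 ratios ran from 0.54 (*Snx11*) to 1.01 (*Cbx1*), so a ratio near that of *Gm53* was also found outside the cluster. The ratio of *Hoxb9*, 1.24 (1.13 to 1.35), was above these.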

How the data were processed

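Strand-marked (dUTP) paired-end RNA sequencing of ribosome-depleted RNA was available for 1 JXO and 1 OXJ library. Per the labels, CASAVA 1.9 and TopHat 1.2.0 were used with the mm9 genome, and per the methods a read could be placed at no more than 10 loci. The authors deposited log2 values of scaled depth plus 1 for either strand, with depth scaled to 50000000 aligned reads. The tracks named forward held (-) strand RNA. This was read from protein-coding genes other than the Hoxb genes, of which 95.3% in JXO and 94.5% in OXJ were then higher on their annotated strand. Only part of the genome is in the tracks.

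Depth was recovered from the log2 values, and the smallest step gave the worth of 1 read, of which every value was a whole multiple (largest relative deviation 3.61e-14). Levels were means over merged GENCODE M1 exons, and ratios used a pseudocount of 0.1 scaled depth. A gene counted as covered when any exon base had signal on its own strand. Stretches joined signal over gaps of up to 50 kb. Called means 2-fold or more, and with 1 library per cross no test was made between them. The calculations were checked on simulated data. Members, gene lists and named genes (all members, all annotated genes of the cluster and its flanks, the 4 highest of each list and the 5 highest (-) bins) were chosen with earlier results of these data known, and bins other than these 5 were named after their values were seen. Calculations ran in Python 3.11.15 (scipy 1.17.1, pandas 2.3.3, numpy 2.4.6), and matplotlib 3.10.9 drew the figures.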

Additional observations from a re-analysis of the deposited data

How the results depend on the processing

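No paired analysis was possible because each cross has 1 library, and for the same reason no library could be left out. The members stayed higher in JXO under each alternative tried, 8 of 8 over coding bases, which *0610040B09Rik* lacks, and 9 of 9 otherwise. Of 71 alternative ratios of single members 61 stayed within their counting interval, 10 moved out of it and none changed sign, and the smallest was 0.07. Of the members, 5 were 2-fold or more higher in JXO as reported, 2 with the totals of the tracks set equal, 2 as a mean of log2 values, 3 over coding bases only, 3 with a pseudocount of 1 and 0 with the median gene set to 0. The median ratio was 0.66 with the median gene set to 0. The median level of the members was 8.90 in JXO and 4.69 in OXJ. It became 5.78 and 3.11 over exons that overlap no other gene, 3.30 and 2.01 as a mean of log2 values, 16.9 and 8.90 over coding bases only (an alternative chosen after seeing the data) and, in JXO, 11.5 over the longest transcript. By share of bases covered in place of depth, 1 member in either library had over 80% on its own strand, and the share over all members was 69.6% in JXO and 70.8% in OXJ in place of 96.3% and 94.8%. The spaces had 0.741 and 0.477 on (+) and 0.0819 and 0.0593 on (-) with 1 kb cut from either end, and 0.709 and 0.447 on (+) and 0.0289 and 0.0337 on (-) outside the gene bodies of both strands. With bases under 2 reads set to 0 they had 0.474 on (+) and 0.0657 on (-) in OXJ. The level of *0610040B09Rik* was 0.721 and 0.344 over its whole body and, in JXO, 2.80 as a mean of log2 values. The body includes introns by construction, and the spaces include the signal past the annotated end of *Hoxb3* and *0610040B09Rik* exons. The cause of the other shifts was not tested. Depth limits *0610040B09Rik*, *Hoxb8* and *Hoxb5*, which rest on fewer than 100 reads a library.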
